A study of Rattus norvegicus with 325 samples.

Results

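The 9 genes described here are the main components of vascular endothelial growth factor (VEGF) signalling, of angiopoietin signalling and of the endothelial cell junction: Vegfa, Vegfb, Kdr, Flt1, Angpt1, Angpt2, Tek, Pecam1 and Cdh5. They were taken by gene symbol from the deposited tables of read counts per gene, in which each had 1 line, and make up 9 of the 17315 symbols. Counts came from RNA sequencing of whole muscle of male Sprague Dawley rats, an outbred strain, that were bought at weaning, aged under specific pathogen free conditions and housed 2 per cage. The diaphragm, gastrocnemius, soleus and tibialis anterior were each taken at 7 ages, namely at 6 and 9 months, at 12, at 18 and at 21, 24 or 27 months, which gave 83, 73, 84 and 85 libraries in 28 groups of 9 to 13. None of the rats carried a transgene or received a treatment, so age and muscle are the variables. All tissue of an age was collected on the same day, so age and collection day cannot be told apart. Gastrocnemius libraries formed a running series (a block of consecutive sample numbers) of their own. In the other muscles the 12-month libraries and 1 library each at 21 months belonged to the third series and the rest to the second. Which libraries stem from the same rat is not given, and a test across libraries therefore measures the spread between libraries of a group.

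VEGF-A, made by muscle fibres and other cells, binds 2 receptor tyrosine kinases of the endothelium. KDR (VEGF receptor 2) carries most of the growth signal, and FLT1 (VEGF receptor 1) binds the ligand tightly and, also as a soluble form, limits how much of it reaches KDR. VEGF-B binds FLT1 and not KDR. TEK (Tie2) is the receptor of the angiopoietins: angiopoietin-1, made mainly by cells around the vessel, activates it and steadies the vessel wall, whereas angiopoietin-2, released by the endothelium, is the context-dependent antagonist that accompanies vessel remodelling. PECAM1 (CD31) and VE-cadherin, the product of Cdh5, hold endothelial cells together, and Pecam1 is also expressed by leukocytes and platelets.

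Libraries held 17.6 to 85.3 megareads (counted reads in units of the mega prefix), with a median of 31.9 megareads, and each of the 9 genes had at least 109 reads in each library. The part of counting error in the spread between libraries was not tested. Levels are given as CPM, counts relative to library size after scaling across the libraries of all muscles, and are not corrected for gene length, so they compare samples for a gene and not genes with each other. All of 9 endothelial markers (Pecam1, Cdh5, Tek, Kdr, Flt1, Tie1, Vwf, Emcn and Cldn5) were detected in all libraries, the lowest value being 5.30 CPM for Cldn5 in the soleus. In whole muscle, fewer endothelial cells and less RNA per cell cannot be told apart, and this holds for each value below.

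To describe the young vasculature first, levels at 6 months were compared between muscles. Angpt2 was at 16.5 to 25.6 CPM in the diaphragm (median 23.1, n = 12), at 14.6 to 24.1 in the soleus (median 20.2, n = 12), at 18.4 to 24.3 in the tibialis anterior (median 20.3, n = 12) and at 9.59 to 12.8 in the gastrocnemius (median 11.6, n = 10). Each gastrocnemius library lay below each library of the other muscles, whose ranges overlapped. Tek ranged from 68.9 to 85.4 CPM in the diaphragm, 56.7 to 65.9 in the soleus, 49.8 to 62.1 in the tibialis anterior and 38.3 to 46.5 in the gastrocnemius, and the ranges of the diaphragm and the gastrocnemius did not touch those of any other muscle. Vegfb was the gene that set the soleus, a slow postural muscle, apart: its 12 libraries lay between 19.9 and 27.2 CPM, below each library of the diaphragm (41.4 to 51.9), the gastrocnemius (44.0 to 61.8) and the tibialis anterior (33.5 to 45.7).

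**Figure D1:**
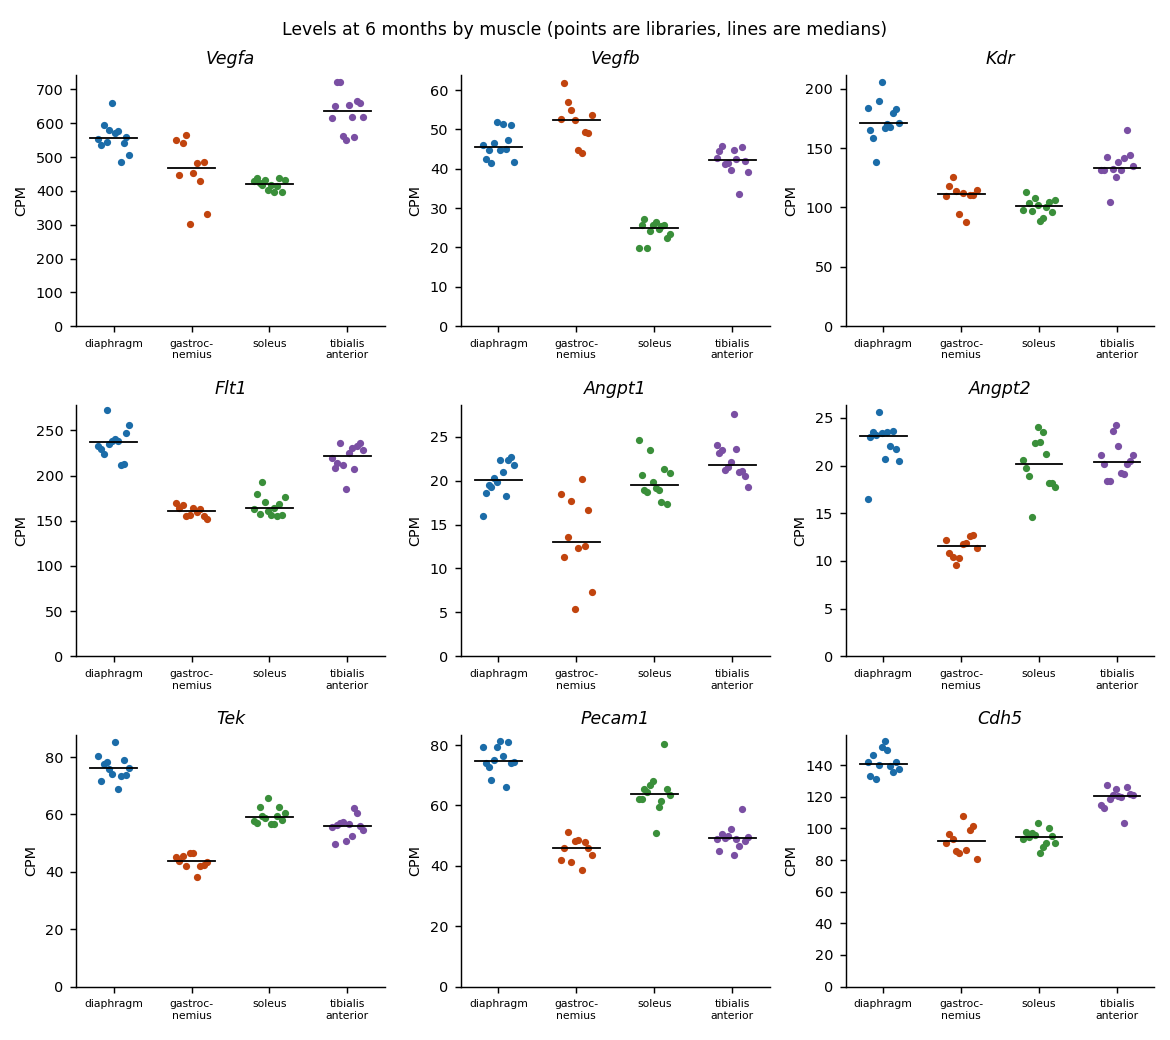
Levels of the 9 genes at 6 months. Each point is a library, lines are medians, and the vertical axes give CPM from 0. The gastrocnemius was lowest for Flt1, Angpt1, Angpt2, Tek, Pecam1 and Cdh5, and the soleus for Vegfa, Vegfb and Kdr.

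The diaphragm, the constantly active breathing muscle, had the highest mean of 6 genes (Kdr, Flt1, Angpt2, Tek, Pecam1 and Cdh5), the tibialis anterior of Vegfa and Angpt1, and the gastrocnemius of Vegfb. In a joint limma-voom fit of all libraries, with p-values adjusted by Benjamini-Hochberg over 12784 genes, a difference was called when adjusted p was under 0.05 and the change exceeded 1.5-fold. Between diaphragm and gastrocnemius 6 of the 9 genes were called (37.3% of all genes tested), all of them lower in the gastrocnemius: Kdr, Angpt1, Angpt2, Tek, Pecam1 and Cdh5. The other pairs gave 3 genes for diaphragm and soleus (23.9% of all genes), 1 for diaphragm and tibialis anterior (35.1%), 3 for gastrocnemius and soleus (45.4%), 2 for gastrocnemius and tibialis anterior (17.3%) and 2 for soleus and tibialis anterior (42.9%). With only 9 genes, a count of 1 to 3 beside such shares says little of the genes as a group.

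The sizes were moderate. Relative to the diaphragm, the gastrocnemius was lower by a log2 difference of -0.98 ± 0.11 (SE) for Angpt2, -0.81 ± 0.05 for Tek, -0.73 ± 0.06 for Pecam1, -0.70 ± 0.14 for Angpt1, -0.66 ± 0.08 for Kdr and -0.62 ± 0.06 for Cdh5. Vegfb was lower in the soleus by -0.93 ± 0.07 against the diaphragm and by -1.10 ± 0.08 against the gastrocnemius. Neighbours in the order often could not be separated: Flt1 differed by 0.06 ± 0.07 between gastrocnemius and soleus (adjusted p = 0.48) and Angpt1 by -0.00 ± 0.12 between diaphragm and soleus (adjusted p = 1.00). Scaling mattered here. With libraries scaled to their total counts alone, the pair of diaphragm and tibialis anterior gave 5 called genes in place of 1, and Vegfa changed from 0.18 to -0.27. Since the gastrocnemius libraries are also a series of their own, muscle and series cannot be told apart in its pairs.

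To ask which of these genes change over life, each age was compared with 6 months within a muscle by limma-voom over all genes of that muscle. At 27 months 7 of the 9 genes were lower (adjusted p under 0.05) in each of the 4 muscles, and 0 were higher; at an unadjusted p under 0.05 7 genes passed in each muscle as well, and with edgeR and DESeq2 7 passed in each. Among all genes tested, 24.7% in diaphragm, 28.9% in gastrocnemius, 26.4% in soleus and 36.5% in tibialis anterior passed as lower, and 20.3%, 33.2%, 27.4% and 37.7% as higher. Changes above 1.5-fold were fewer. They numbered 1 in diaphragm (Angpt1, where 7.52% of all genes were called), 3 in gastrocnemius (Kdr, Flt1 and Angpt2, 22.8%), 3 in soleus (Vegfa, Kdr and Angpt2, 15%) and 5 in tibialis anterior (Vegfa, Kdr, Flt1, Angpt1 and Angpt2, 27.6%). Total-count scaling left 2 called in the tibialis anterior, Angpt1 (-0.67) and Angpt2 (-0.81), and the level of macrophage markers as a covariate also left 2 there. Calls over all genes in that muscle went from 3245 to 4065 with total-count scaling and to 1468 with the covariate. The median log2 change of the 9 genes was -0.42, -0.47, -0.38 and -0.63 in these muscles, beside medians over all genes of 0.00, 0.04, 0.02 and 0.02.

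**Figure D2:**
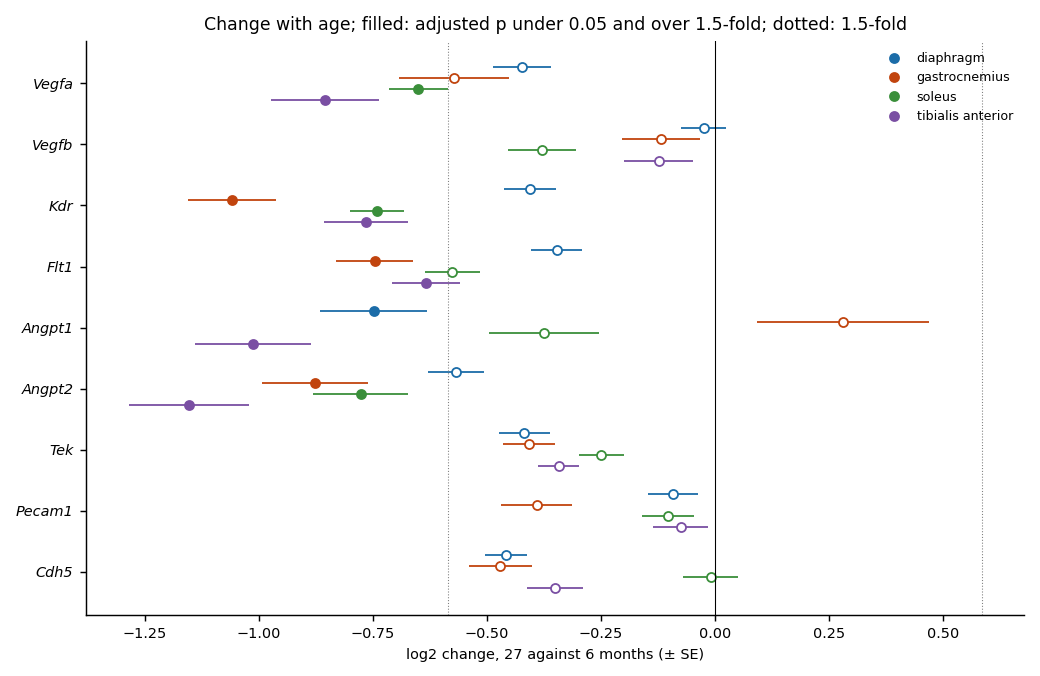
Change of the 9 genes between 6 and 27 months in each muscle. Points are log2 changes with their SE from limma-voom, filled where adjusted p was under 0.05 and the change over 1.5-fold, and dotted lines mark 1.5-fold. Most points lie left of 0, with Angpt2 farthest in the soleus and tibialis anterior and Kdr in the gastrocnemius, and Angpt1 in the gastrocnemius is the only point clearly right of 0 and did not pass the test.

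Of the ligands, Vegfa fell in each muscle. In the soleus its level was 397 to 438 CPM at 6 months (median 421) and 196 to 340 at 27 months (median 267), so that no old library reached the lowest young library. The log2 change was -0.65 ± 0.07 (adjusted p = 4.0e-14). In the tibialis anterior 549 to 723 CPM (median 636) became 200 to 590 (median 330), a change of -0.86 ± 0.12 (adjusted p = 9.4e-10), with 11 of 12 old libraries below all young libraries. The old libraries of that muscle were spread more widely than the young ones.

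Vegfa went from 486 to 662 CPM (median 557) to 335 to 514 (median 418) in the diaphragm, by -0.42 ± 0.06 (adjusted p = 7.4e-08), and 9 of 12 old libraries lay below the young range. In the gastrocnemius 302 to 565 CPM (median 469) became 202 to 475 (median 289), and the ranges overlapped for 5 of the 11 old libraries. That change was -0.57 ± 0.12 (adjusted p = 3.4e-05).

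Vegfb, the ligand with more known roles in fatty acid handling than in sprouting, behaved otherwise. It passed in soleus alone, where 19.9 to 27.2 CPM (median 25.0) became 12.5 to 23.8 (median 18.4) and the change was -0.38 ± 0.07 (adjusted p = 1.1e-05). In the other muscles the changes were -0.02 in diaphragm (95% interval, ± 1.96 SE, -0.12 to 0.07), -0.12 in gastrocnemius (-0.29 to 0.05) and -0.12 in tibialis anterior (-0.27 to 0.03), none of which reaches a 1.5-fold change. The sign outside the soleus depended on the scaling. With total-count scaling, under which the median of all genes rose by 0.32 in gastrocnemius, 0.16 in soleus and 0.34 in tibialis anterior, Vegfb was at 0.20 in tibialis anterior (adjusted p = 0.0038).

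The receptor Kdr fell in each muscle and most in the gastrocnemius. There 87.9 to 125 CPM at 6 months (median 111, n = 10) became 37.1 to 75.7 at 27 months (median 51.5, n = 11). The ranges were separate, and the log2 change was -1.06 ± 0.10, a fold of 0.480 (adjusted p = 3.0e-15). In the soleus 88.6 to 113 CPM (median 101) became 42.6 to 69.4 (median 62.6), again without overlap (-0.74 ± 0.06, adjusted p = 2.8e-18).

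In the tibialis anterior Kdr went from 105 to 165 CPM (median 133) to 55.4 to 113 (median 83.4), and 11 of 12 old libraries were below the young range (-0.77 ± 0.09, adjusted p = 1.1e-11). The diaphragm changed less, from 138 to 206 CPM (median 171) to 103 to 161 (median 132), and 7 of 12 old libraries left the young range (-0.41 ± 0.06, adjusted p = 1.0e-08).

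Flt1 followed Kdr at a somewhat smaller size. Its ranges at 6 and 27 months were separate in the 3 limb muscles: 151 to 170 CPM against 59.1 to 136 in the gastrocnemius, 156 to 193 against 72.9 to 141 in the soleus, and 185 to 236 against 104 to 185 in the tibialis anterior. In the tibialis anterior they only just separated, with the highest old library at 184.8 CPM and the lowest young library at 185.0. In the diaphragm 211 to 272 became 161 to 215. The changes were -0.75 ± 0.08, -0.58 ± 0.06, -0.63 ± 0.07 and -0.35 ± 0.06, with adjusted p-values of 8.5e-12, 1.7e-13, 4.9e-12 and 4.6e-07. The soluble and the membrane-bound form of FLT1 come from the same gene and are not separated by counts per gene.

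Because Vegfa, Kdr and Flt1 fell together, the 250 bases before the start of each are shown for reference, from the RefSeq promoter table of rat build GRCr8. They lie at chr9:22452604-22452853 for the first of 2 Vegfa windows, chr14:32571813-32572062 for Kdr and chr12:12333180-12333429 for Flt1, all on the plus strand. Such a window was at hand for 4 of the 9 genes, the fourth being Vegfb. Capitals mark GGAAG on either strand (CTTCC when read on the strand shown), the core of many sites of ETS factors, which act in endothelial promoters.
Vegfa: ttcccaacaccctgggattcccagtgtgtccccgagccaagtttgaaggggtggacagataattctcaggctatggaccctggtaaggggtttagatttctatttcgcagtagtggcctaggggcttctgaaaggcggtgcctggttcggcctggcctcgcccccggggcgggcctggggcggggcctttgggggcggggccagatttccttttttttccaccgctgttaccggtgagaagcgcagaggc
Kdr: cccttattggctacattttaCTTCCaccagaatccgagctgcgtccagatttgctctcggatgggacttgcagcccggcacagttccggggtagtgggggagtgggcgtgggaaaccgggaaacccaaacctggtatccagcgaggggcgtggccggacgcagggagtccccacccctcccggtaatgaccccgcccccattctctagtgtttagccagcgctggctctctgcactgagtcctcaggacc
Flt1: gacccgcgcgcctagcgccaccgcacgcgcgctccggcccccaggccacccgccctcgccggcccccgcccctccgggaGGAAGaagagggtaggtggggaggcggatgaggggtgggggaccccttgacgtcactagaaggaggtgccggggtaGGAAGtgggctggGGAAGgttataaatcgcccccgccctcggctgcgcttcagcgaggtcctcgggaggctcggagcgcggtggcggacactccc
The Flt1 window holds 3 matches to GGAAG, the Kdr window 1 and this Vegfa window 0, and 63.3% of 33469 promoter windows of that length hold at least 1. GGGCGG on either strand, the GC box, occurs 3 times in the Vegfa and the Flt1 windows and once in that of Kdr, against 30.5% of all windows with at least 1 match. ACGTG on either strand, a form of the core of the hypoxia response element, is in none of the 3 windows and in 16.6% of all windows. The other form of that core, GCGTG, was not counted. The second Vegfa window, at chr9:22460028-22460277 on the plus strand, holds 1 match to GGAAG and 0 to GGGCGG and ACGTG. Matches to GGAAG and GGGCGG may share bases.

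**Figure D3:**
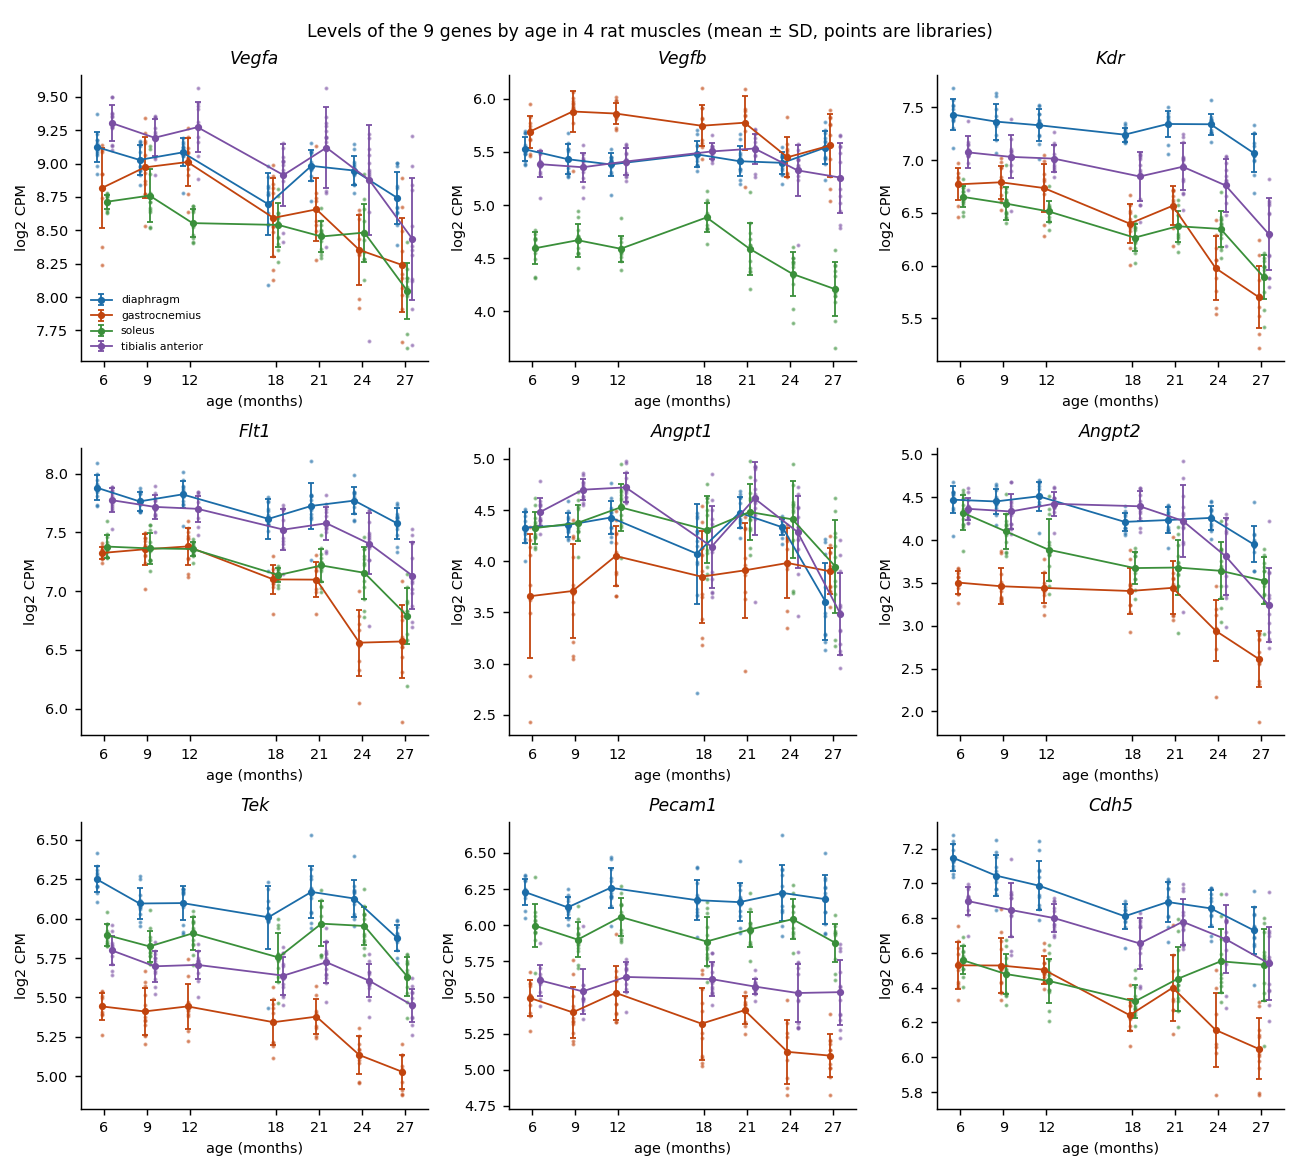
Levels of the 9 genes over age. Points are libraries and lines join group means with SD bars, on a log2 CPM scale with ages in months. In many panels the values at 18 months lie below those at 21 months, and most of the lowest means stand at 24 or 27 months.

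Of the angiopoietin genes, Angpt2, the endothelial remodelling signal, fell in each muscle. In the tibialis anterior 18.4 to 24.3 CPM (median 20.3) became 6.66 to 18.6 (median 9.22). The change of -1.15 ± 0.13, a fold of 0.450 (adjusted p = 1.6e-12), was the largest fall among the 36 comparisons of a gene in a muscle at 27 months, and 11 of 12 old libraries lay below the young range. In the gastrocnemius 9.59 to 12.8 CPM became 3.66 to 7.56, with no overlap (-0.88 ± 0.12, adjusted p = 1.0e-09). In the soleus 14.6 to 24.1 became 7.46 to 14.9 (-0.78 ± 0.10, adjusted p = 1.1e-09), and in the diaphragm 16.5 to 25.6 became 12.4 to 21.7 (-0.57 ± 0.06, adjusted p = 4.9e-12). The diaphragm value stood just inside 1.5-fold, and without the 6-month replicate 0 or the 27-month replicate 10 it was -0.60 in both cases, so that 2 genes were called in that muscle in place of 1.

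Angpt1, the vessel-steadying ligand, was the most uneven of the 9. In the tibialis anterior all 12 old libraries (7.77 to 18.5 CPM, median 10.7) lay below all young libraries (19.3 to 27.5, median 21.8), a change of -1.01 ± 0.13 (adjusted p = 4.0e-11). In the diaphragm 15.96 to 22.7 CPM became 8.77 to 18.6 (-0.75 ± 0.12, adjusted p = 1.9e-07), and in the soleus 17.4 to 24.6 became 8.96 to 24.5 (-0.37 ± 0.12, adjusted p = 0.0066).

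The gastrocnemius gave no fall of Angpt1. Its young libraries spread from 5.37 to 20.2 CPM (median 13.0) and its old libraries from 11.7 to 19.0 (median 15.02), so that all 11 old libraries lay within the young range. The change was 0.28, with a 95% interval from -0.09 to 0.65 (adjusted p = 0.19). Angpt1 was also compared with the leading axis of spread between libraries, described below, after removal of age means. Gastrocnemius libraries gave r = 0.11 (n = 73). The diaphragm gave r = -0.85 (n = 83), the soleus -0.49 (n = 84) and tibialis anterior libraries -0.41 (n = 85).

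Tek, the receptor, fell in each muscle by less than 1.5-fold. In the diaphragm 68.9 to 85.4 CPM became 52.6 to 63.6, in gastrocnemius 38.3 to 46.5 became 29.4 to 36.9, in soleus 56.7 to 65.9 became 41.3 to 54.7, and in tibialis anterior 49.8 to 62.1 became 38.4 to 49.2. Each old library lay below each young library of its muscle. The log2 changes were only -0.42 ± 0.06, -0.41 ± 0.06, -0.25 ± 0.05 and -0.34 ± 0.04, with adjusted p-values of 3.2e-09, 5.6e-09, 1.2e-05 and 1.6e-10. With total-count scaling the change no longer passed in 3 muscles, at -0.13 in gastrocnemius (adjusted p = 0.083), -0.10 in soleus (adjusted p = 0.094) and -0.02 in tibialis anterior (adjusted p = 0.75). Ranges separated in this way for 2 of the 9 genes in diaphragm (Tek and Cdh5), 5 in gastrocnemius (Kdr, Flt1, Angpt2, Tek and Cdh5), 4 in soleus (Vegfa, Kdr, Flt1 and Tek) and 3 in tibialis anterior (Flt1, Angpt1 and Tek), and for 1.49%, 7.02%, 3.25% and 10.4% of all genes.

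The junction genes parted ways. Pecam1 was at 66.2 to 81.2 CPM in the diaphragm at 6 months (median 74.7) and 61.3 to 90.4 at 27 months (median 74.2), at 51.0 to 80.5 and 49.2 to 67.1 in the soleus, and at 43.4 to 58.7 and 37.3 to 58.5 in the tibialis anterior. Young and old ranges overlapped in these 3 muscles. The 95% intervals of the log2 change ran from -0.20 to 0.02, from -0.21 to 0.01 and from -0.19 to 0.04. Pecam1 fell in the gastrocnemius, from 38.5 to 51.1 CPM (median 45.9) to 28.3 to 41.8 (median 35.1), by -0.39 ± 0.08 (adjusted p = 1.5e-05). With total-count scaling the gastrocnemius value was -0.11 (adjusted p = 0.21), and the sign turned in the soleus (0.04, adjusted p = 0.57) and the tibialis anterior (0.25, adjusted p = 0.00067).

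Cdh5 fell in the diaphragm from 131 to 155 CPM to 85.4 to 124 (-0.46 ± 0.05, adjusted p = 1.8e-13) and in the gastrocnemius from 80.4 to 108 to 55.1 to 79.7 (-0.47 ± 0.07, adjusted p = 1.9e-08), with separate ranges in both. In the tibialis anterior 104 to 128 became 74.0 to 124 (-0.35 ± 0.06, adjusted p = 6.6e-07), a fall that was at -0.03 (adjusted p = 0.69) with total-count scaling. In the soleus it was at 84.5 to 104 CPM and 66.9 to 111, and its change of -0.01 had an interval from -0.13 to 0.11, with a sign that turned under edgeR, a stricter filter and total-count scaling.

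To place these changes in time, the intermediate ages were compared with 6 months as well. At 9 and 12 months 0 of the 9 genes were called in each muscle, beside 0.108% and 0.532% of all genes in the diaphragm at these ages, 0.143% and 0.885% in the gastrocnemius, 0.123% and 0.353% in the soleus, and 0.00851% and 0.196% in the tibialis anterior. At an unadjusted p under 0.05, 1 or 2 genes per muscle stood out at 9 months (8.65% to 13.6% of all genes) and 2 or 3 at 12 months (9.68% to 16.5%), and edgeR and DESeq2 called 0 as well. Without the fold limit 2 changes passed at 12 months, those of Cdh5 in the diaphragm (-0.16 ± 0.05, adjusted p = 0.035) and Angpt2 in the soleus (-0.43 ± 0.10, adjusted p = 0.011), beside 3.51% and 2.55% of all genes in these muscles. Outside the gastrocnemius the 12-month and the 6-month libraries are of different running series. At 12 months age and series therefore cannot be told apart in those muscles. Angpt2 in the soleus was then called at 18 months (-0.65 ± 0.10), 21 months (-0.63 ± 0.10) and 24 months (-0.66 ± 0.11). No other gene of the 9 was called in the soleus at those ages, where 2.84%, 2.61% and 6.51% of all genes were called.

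At 18 and 21 months the diaphragm, gastrocnemius and tibialis anterior had 0 called genes (background 2.25% and 1.68% in the diaphragm, 4.32% and 5.81% in the gastrocnemius, 5.45% and 6.47% in the tibialis anterior), with 6, 2 and 5 genes passing without the fold limit at 18 months (23.3%, 13.3% and 35.3% of all genes passed), and 2, 0 and 0 at 21 months (8.83%, 18.7% and 27.0%). edgeR and DESeq2 also called 0 in these muscles at both ages. At unadjusted p under 0.05 the counts were 7, 4 and 6 at 18 months (36.6%, 26.5% and 43.8% of all genes) and 5, 2 and 2 at 21 months (22.4%, 31.3% and 38.5%). Vegfa in the diaphragm was at -0.44 ± 0.06 at 18 months (adjusted p = 7.4e-07) and at -0.14 ± 0.06 at 21 months (adjusted p = 0.18). Tek in the soleus was at -0.15 ± 0.05 at 18 months (adjusted p = 0.019) and at 0.08 ± 0.05 at 21 months (adjusted p = 0.27). Vegfb in the soleus went the other way at 18 months, with a rise of 0.29 ± 0.07 (adjusted p = 0.0011). The 18-month and 21-month libraries come from different collection days and were not tested against each other.

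The gastrocnemius stepped down at 24 months, when Kdr was at -0.79 ± 0.10 and Flt1 at -0.76 ± 0.09 (2 called genes, 18.8% of all genes) and 8 of the 9 genes passed, beside 56.9% of all genes. In the tibialis anterior Angpt2 alone was called at 24 months (-0.60 ± 0.12, 14.5% of all genes) and was not called with edgeR, with DESeq2 or with total-count or upper-quartile scaling. The diaphragm had 0 called genes at 24 months (2.68% of all genes), with 2 passing (10.8% of all genes), 5 at unadjusted p under 0.05 (24.0%) and 0 called by edgeR or DESeq2.

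Fitted over all 7 ages by the Bayesian information criterion, a gene was taken as age-related if some age gave a call and a linear or logistic trend was favoured. This held for 1 gene in diaphragm (6.7% of all genes), 3 in gastrocnemius (23.3%), 3 in soleus (12.6%) and 5 in tibialis anterior (26.8%), the same genes as those called at 27 months. All fell. Vegfa was linear in soleus and tibialis anterior, Kdr was linear in soleus and late (inflection after 21 months) in gastrocnemius and tibialis anterior, Flt1 late in gastrocnemius and linear in tibialis anterior, and Angpt2 linear in soleus and late in gastrocnemius and tibialis anterior. Angpt1 was late in both muscles in which it counted. The inflection was searched up to 27 months, the last age. It was fitted at 27 months for Kdr in the tibialis anterior and Angpt1 in the diaphragm, and at 26.75 months for Kdr in the gastrocnemius. At that edge the age of the inflection is not well placed.

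Whether a fall differed between muscles was tested as an interaction in the joint fit. The fall of Kdr was deeper in the gastrocnemius than in the diaphragm by -0.70 ± 0.11 (adjusted p = 1.3e-08). That of Angpt2 was deeper in the tibialis anterior than in the diaphragm by -0.63 ± 0.14 (adjusted p = 6.6e-05). Angpt1 gave the largest differences, each involving the limb muscles: the tibialis anterior lay below the gastrocnemius by -1.29 ± 0.20 (adjusted p = 7.5e-08) and below the soleus by -0.63 ± 0.19 (adjusted p = 0.0036), the soleus below the gastrocnemius by -0.66 ± 0.20 (adjusted p = 0.0036), and the gastrocnemius above the diaphragm by 0.97 ± 0.20 (adjusted p = 7.2e-06). With Bonferroni adjustment 0 genes were called for diaphragm and tibialis anterior, gastrocnemius and soleus, and soleus and tibialis anterior. With edgeR 0 were called for diaphragm and tibialis anterior and for gastrocnemius and soleus, and with total-count scaling 0 for diaphragm and tibialis anterior and for soleus and tibialis anterior.

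These differences above 1.5-fold make 2 of the 9 genes for diaphragm and gastrocnemius (21.6% of all genes), 1 for diaphragm and tibialis anterior (20.3%), 1 for gastrocnemius and soleus (14.5%), 1 for gastrocnemius and tibialis anterior (7.32%) and 1 for soleus and tibialis anterior (15.8%). For diaphragm and soleus 0 were called (11.9% of all genes), 5 had an unadjusted p under 0.05 and edgeR called 0. Among smaller differences, the fall of Cdh5 was less in the soleus than in the diaphragm by 0.39 ± 0.08 (adjusted p = 3.2e-05), and Pecam1 fell more in the gastrocnemius than in the diaphragm by -0.35 ± 0.09 (adjusted p = 0.00050). The muscles share collection days, and those with the gastrocnemius also differ in running series.

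The balance within pairs was followed by log2 ratios of counts within a library, which do not depend on scaling. A two-sided permutation test with 100000 resamples compared 27 with 6 months in each muscle, adjusted over 12 tests. Vegfa fell relative to Vegfb in each muscle: by -0.74 ± 0.07 in the tibialis anterior and -0.40 ± 0.07 in the diaphragm (12 of 12 old libraries below the young mean in both; adjusted p = 8.0e-05 in both, from the smallest p the resampling gives, 2.0e-05), by -0.45 ± 0.13 in the gastrocnemius (11 of 11; adjusted p by permutation = 0.0081) and by -0.28 ± 0.08 in the soleus (11 of 12; adjusted p by permutation = 0.0020). At 24 months the ratio was lower than at 6 months in the tibialis anterior (-0.37, adjusted p by permutation = 0.00024). It stood at 0.01 in the soleus and -0.05 in the diaphragm at that age. The course was not a steady fall. Mean log2 ratios at 18 months were 3.657 in the soleus, 3.217 in the diaphragm and 3.409 in the tibialis anterior. At 6 months they were 4.121, 3.599 and 3.919. In the gastrocnemius the means were 2.846 at 18 months and 3.125 at 6 months. The ratios at 18 months were not tested.

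**Figure D4:**
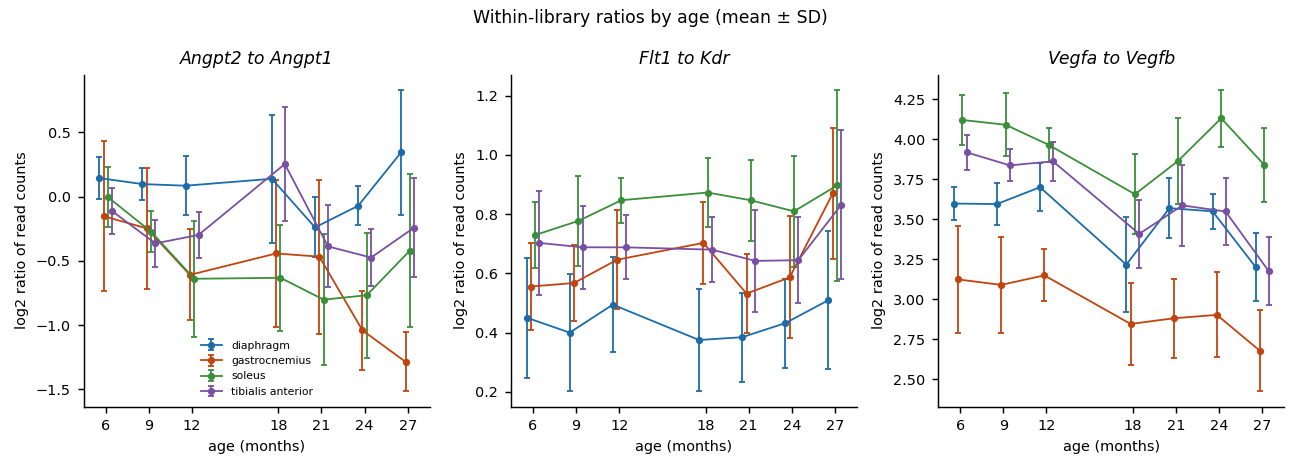
Log2 ratios of read counts within libraries over age, as group means with SD. Vegfa to Vegfb ends lower at 27 months in each muscle, Angpt2 to Angpt1 drops most in the gastrocnemius, and Flt1 to Kdr rises at 27 months in the gastrocnemius.

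Angpt2 fell relative to Angpt1 in gastrocnemius by -1.13 ± 0.20 (11 of 11 old libraries below the young mean, adjusted p by permutation = 8.0e-05) and, at the edge of the threshold, in soleus by -0.42 ± 0.18 (9 of 12, adjusted p by permutation = 0.04995). In the diaphragm the ratio was at 0.20 ± 0.15 and in tibialis anterior at -0.13 ± 0.12, where both genes fell (adjusted p by permutation = 0.23 and 0.33). At 24 months, by contrast, the ratio was lower in all 4 muscles, by -0.22 in diaphragm, -0.89 in gastrocnemius, -0.76 in soleus and -0.36 in tibialis anterior (adjusted p by permutation = 0.00965, 0.00136, 0.00024 and 0.00096). Flt1 rose relative to Kdr at 27 months in gastrocnemius (0.31 ± 0.08, 10 of 11 libraries above the young mean, adjusted p by permutation = 0.0025), and the differences in the other muscles, 0.06 to 0.17, did not pass.

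Pecam1 is expressed by leukocytes and platelets as well, and whether its level measures endothelial content was not tested. Between libraries of the same age, Pecam1 was correlated with the other 8 genes within a muscle after removal of age means (Pearson r and Spearman rho, permutation within age with 100000 resamples, 32 tests adjusted together). The share of all genes that pass the same test with Pecam1 is not given here. Of the 32 tests, 13 passed. Cdh5 did so in each muscle, with r = 0.44 in diaphragm (n = 83), 0.45 in gastrocnemius (n = 73), 0.32 in soleus (n = 84) and 0.36 in tibialis anterior (n = 85), rho = 0.33, 0.45, 0.32 and 0.34, and adjusted permutation p = 0.00075, 0.00075, 0.010 and 0.017. Without the 2 libraries farthest from the Pecam1 median r was 0.43, 0.45, 0.30 and 0.24. Tek passed in gastrocnemius (r = 0.60, rho = 0.56, 0.58 without 2 libraries), the tibialis anterior (r = 0.35, rho = 0.38, 0.31 without 2) and the diaphragm (r = 0.29, rho = 0.24, 0.27 without 2).

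Kdr passed in 3 muscles, with r = 0.39 in gastrocnemius (rho = 0.39, 0.38 without 2), 0.33 in soleus (rho = 0.32, 0.31 without 2) and 0.31 in tibialis anterior (rho = 0.30, 0.21 without 2). Flt1 passed in gastrocnemius (r = 0.40, rho = 0.40, 0.41 without 2) and the diaphragm (r = 0.28, rho = 0.21, 0.30 without 2). By rho, Tek and Flt1 in diaphragm did not pass (adjusted permutation p = 0.075 and 0.11). The ligands did not track Pecam1 in the same way. By r, Vegfa (-0.16 to 0.16), Vegfb and Angpt2 passed in no muscle, although Vegfa and Angpt2 passed by rho in tibialis anterior (0.30 and 0.31, adjusted permutation p = 0.030 for each), and Angpt1 had a negative r in diaphragm (-0.36, rho = -0.29, adjusted permutation p = 0.0082). Within the second running series alone 6 of the 24 tests outside the gastrocnemius passed, Cdh5 in each of the 3 muscles (r = 0.37, 0.36 and 0.36), Kdr in soleus (0.35), Tek in tibialis anterior (0.36) and Angpt1 in diaphragm (-0.40). All gastrocnemius libraries are of the first series. Pecam1 itself was correlated with the leading axis of spread between libraries, described below, after removal of age means. Its r was 0.33 in diaphragm, 0.29 in gastrocnemius, 0.07 in soleus and 0.47 in tibialis anterior. The part of that axis in the correlations with Pecam1 was not tested.

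The genes whose pattern was most like each of the 9 were sought among 10407 genes, as a description. Across the 28 group means these were Flt1 for Kdr (r = 0.96), Notch4 for Flt1 (0.97), Itga6 for Cdh5 (0.96), Myct1 for Tek (0.98), Foxc1 for Pecam1 (0.98), Cdadc1 for Vegfa (0.95), Mcee for Vegfb (0.99), Senp7 for Angpt1 (0.95) and Hivep1 for Angpt2 (0.95). Within ages and muscles, as a mean over the 4 muscles, they were Itga6 for Kdr (0.63), Adgrf5 for Flt1 (0.79), Cdh23 for Cdh5 (0.59), Podxl for Tek (0.56), Pcdh19 for Pecam1 (0.48), Cycs for Vegfa (0.77), Ndufv1 for Vegfb (0.73), Oxr1 for Angpt1 (0.82) and Ankrd40 for Angpt2 (0.47). Group means share their collection day and, in the gastrocnemius, their series.

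To set the 9 genes among their pathways, fixed lists were read at 27 months. Over all genes tested, 24.7%, 28.9%, 26.4% and 36.5% passed as lower in diaphragm, gastrocnemius, soleus and tibialis anterior. As higher, 20.3%, 33.2%, 27.4% and 37.7% passed. Counts of lists and of cell markers given below are to be read beside these shares. Of 27 further endothelial genes, 14 passed as lower in diaphragm, 18 in gastrocnemius, 13 in soleus and 16 in tibialis anterior, and 1, 1, 0 and 2 as higher, with median changes of -0.18, -0.31, -0.19 and -0.19. Aplnr, the apelin receptor, fell by 0.85 on the log2 scale in diaphragm and by 0.69 in gastrocnemius. Clec14a, an endothelial surface lectin, was at -0.75 in diaphragm, -0.41 in soleus and -0.56 in tibialis anterior, S1pr1, the receptor for sphingosine 1-phosphate, at -0.59 in gastrocnemius, and Myct1 at -0.57 in both the soleus and the tibialis anterior, all passing.

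Notch genes of the vessel wall, which act downstream of VEGF in choosing tip and stalk cells, fell for 7, 5, 5 and 4 of 8 members and rose for 0, 0, 0 and 2. Dll4, the tip cell ligand, fell to -1.0005 ± 0.1108 in gastrocnemius, -0.58 ± 0.09 in soleus and -0.64 ± 0.09 in tibialis anterior, Hey1, a Notch target, to -0.86 in gastrocnemius, and Nrarp, a feedback regulator, to -0.53, -0.72 and -0.70 in diaphragm, soleus and tibialis anterior. Hes1, another target, was at -0.42 in diaphragm. Pericyte and smooth muscle genes fell for 6, 6, 6 and 5 of 11 and rose for 0, 2, 1 and 3: Rgs5, a pericyte marker, was at -0.83 in diaphragm and -0.73 in soleus, Kcnj8, a channel of pericytes, at -1.11, -0.66 and -0.78 in gastrocnemius, soleus and tibialis anterior, and Pdgfb, by which endothelium recruits pericytes, at -0.45, -0.95 and -1.10 in diaphragm, gastrocnemius and tibialis anterior. The pericyte genes named are those with the largest changes, and none of those that rose is among them. With lists this short, the Notch and pericyte counts in the tibialis anterior say little beside 36.5% of all genes lower and 37.7% higher.

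**Figure D5:**
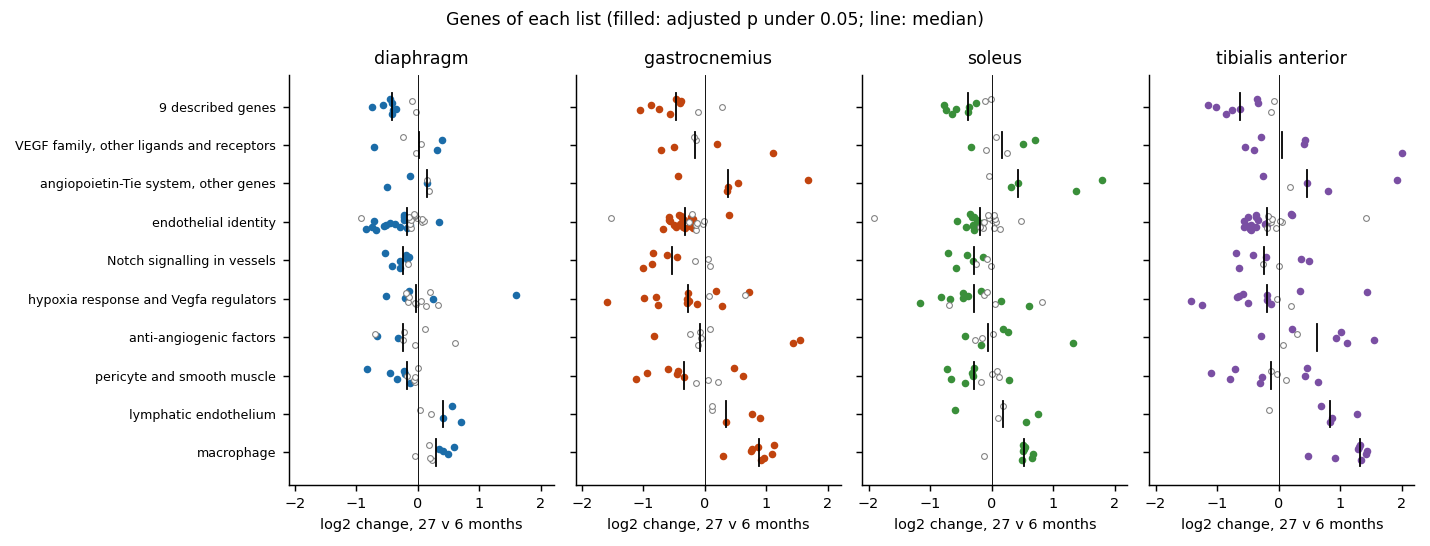
Log2 changes between 6 and 27 months of the 9 genes and of the lists, by muscle. Each point is a gene, filled where adjusted p was under 0.05, and lines are medians. Endothelial and Notch lists lie mostly left of 0, and lymphatic and macrophage lists mostly right.

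The remaining VEGF ligands and receptors did not move together. Of 6 members 2, 2, 2 and 3 rose and 1, 2, 1 and 3 fell. Nrp1, the co-receptor of VEGF-A, fell to -0.72 ± 0.05 in the diaphragm and -0.54 ± 0.06 in the tibialis anterior, and Flt4, the VEGF-C receptor, to -0.71 in the gastrocnemius. Figf, which encodes VEGF-D, rose by 1.10 in the gastrocnemius and 2.01 in the tibialis anterior, Pgf, placental growth factor, by 0.39 in the diaphragm and 0.70 in the soleus, and Nrp2 by 0.52 in the soleus.

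Other genes of the angiopoietin group rose in the limb muscles (4, 4 and 3 of 5 in gastrocnemius, soleus and tibialis anterior) and fell for 1, 0 and 1. In the diaphragm 1 rose and 2 fell. Angptl4, a lipoprotein lipase inhibitor, rose by 1.67 in gastrocnemius, 1.80 in soleus and 1.92 in tibialis anterior, Angpt4 by 1.37 in soleus and 0.80 in tibialis anterior, and Angptl2 by 0.15 in diaphragm and 0.54 in gastrocnemius. Angptl1 was at -0.50 in diaphragm. Among regulators of Vegfa and genes of the hypoxia response, 3 of 14, 9 of 14, 7 of 14 and 9 of 13 fell and 2, 3, 2 and 2 rose: Hif1a was at -0.51 in diaphragm, Epas1, which encodes HIF-2alpha, at -0.99 in gastrocnemius, Esrra, the estrogen-related receptor alpha, at -0.82 and Bnip3 at -1.16 in soleus, and Car9, a hypoxia target, at -1.60 in gastrocnemius and -1.43 in tibialis anterior, while Hif3a in diaphragm (1.59) and Slc2a1, the glucose transporter, in tibialis anterior (1.43) rose.

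Anti-angiogenic factors were mixed, with 0, 2, 3 and 5 of 8 higher and 2, 1, 2 and 1 lower. Sema3a rose by 1.54 in the gastrocnemius and 1.55 in the tibialis anterior, and the chemokine Cxcl10 by 1.43, 1.32 and 1.11 in the gastrocnemius, soleus and tibialis anterior. Sparc was at -0.66 in the diaphragm and -0.43 in the soleus, and Serpinf1 at -0.32 in the diaphragm. Lymphatic genes rose for 3, 3, 2 and 4 of 5 and fell for 0, 0, 1 and 0: Lyve1 by 0.90 and 0.87 in the gastrocnemius and tibialis anterior, Pdpn by 0.77, 0.76 and 1.28 in the limb muscles, and Ccl21 by 0.71 and Reln by 0.56 in the diaphragm, while Prox1 was at -0.60 in the soleus.

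Markers of other cells moved with age beside these falls. Of 8 macrophage markers 4, 8, 7 and 8 rose and 0 fell. Their summed level was 104 to 174 CPM at 6 months and 149 to 255 at 27 months in the diaphragm, 77.0 to 132 and 141 to 245 in the gastrocnemius, 122 to 198 and 198 to 269 in the soleus, and 38.9 to 62.4 and 78.8 to 154 in the tibialis anterior. None of the 8 was at 0 throughout a group. With that level as a covariate, chosen after the data were seen, the number of the 9 genes called in the tibialis anterior was 2 in place of 5, while the calls there over all genes went from 3245 to 1468, Vegfa there went from -0.86 to -0.27 (adjusted p = 0.0955) and Vegfa in the gastrocnemius from -0.57 to -0.14 (adjusted p = 0.48), and Angpt1 in the gastrocnemius went from 0.28 to 0.87 (adjusted p = 0.0015). In the tibialis anterior and the gastrocnemius the 6-month and 27-month ranges of the macrophage level were separate. Age and macrophage level therefore cannot be told apart in these muscles. Pecam1 is also made by such leukocytes, and their part in its level was not tested.

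The 4 adipocyte markers rose in each limb muscle (4 of 4) and in the diaphragm 0 passed, T and B cell markers that could be tested rose for 1 of 6, 1 of 2, 1 of 2 and 2 of 2, and fibroblast markers fell for 4 of 5 in the diaphragm and 1 of 5 in each limb muscle, where 3 of 5 rose. Pf4, the 1 platelet marker tested, rose by 0.86, 0.85 and 1.90 in the diaphragm, gastrocnemius and tibialis anterior, and Ppbp or Gp1bb, also platelet genes, had no reads at all in several groups. Of 4 red cell markers 0, 0, 1 and 1 rose. Of 4 Schwann cell markers 0, 1, 0 and 2 rose and 0, 2, 0 and 0 fell, and of 3 satellite cell markers 0, 2, 1 and 2 rose and 1, 0, 1 and 0 fell. Slow fibre markers rose for 4 of 6 in the diaphragm and fell for 2, 6 and 2 of 6 in the limb muscles, and fast fibre markers rose for 2 of 6 in the diaphragm (1 fell) and 6 of 6 in the soleus and fell for 4 and 5 of 6 in the gastrocnemius and tibialis anterior. Mesothelial markers were testable for 2, 1, 1 and 0 genes, of which Msln in the soleus fell by 1.67. The part of these cells in the 9 genes was not tested.

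Libraries of the same age also differed along a leading axis, taken as the first principal component of the age-centred values of another muscle and expressed in SD units. In the gastrocnemius it stood at 0.89 ± 0.12 (SD) at 6 months and -1.58 ± 0.67 at 27 months, and with it as a covariate 0 of the 9 genes passed there: Kdr was at -0.28 (adjusted p = 0.28), Angpt2 at -0.25 (adjusted p = 0.54), Flt1 at 0.08 (adjusted p = 0.76) and Vegfa at 0.17 (adjusted p = 0.72). Calls over all genes in that muscle went from 2708 to 498. The axis itself moved with age in that muscle, so age and axis cannot be told apart there. In the diaphragm, where the axis went from -0.25 ± 0.15 to 1.27 ± 1.06, 8 genes passed, and Angpt1 was at -0.28 in place of -0.75 and was no longer called, with 632 in place of 905 calls over all genes. In the soleus and the tibialis anterior, with means of -0.22 and 0.57 and of -0.23 and 0.63 at 6 and 27 months, 4 and 5 genes were called with the axis in the fit, and calls over all genes went from 1825 to 1846 and from 3245 to 3330. The mean of the axis at 18 months was 0.60 for the diaphragm, 0.22 for the gastrocnemius, 1.33 for the soleus and 1.42 for the tibialis anterior. At 12 and 21 months it was -0.50 and -0.49 for the diaphragm and 0.67 and 0.09 for the gastrocnemius. For the soleus it was -0.51 and -0.42 at these ages, and for the tibialis anterior -0.44 and -0.44. The part of the axis in the 18-month values of the 9 genes was not tested.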

How the data were processed

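The files hold raw counts of reads per gene, which the authors deposited for each library. Per the labels and the methods, RNA of tissue kept in RNAlater gave strand-specific, rRNA-depleted total RNA libraries, sequenced in pairs and counted with ArrayStudio on the rat B6.0 reference. The 9 genes and the lists were chosen with earlier results of these data known. Named genes were all 9, up to 2 genes per list and muscle that passed with the largest change at 27 months, and the most alike genes. Counts were scaled by TMM (edgeR 4.0.16), filtered by filterByExpr (minimum count 10, minimum total 15) and fitted by limma-voom (limma 3.58.1, R 4.3.3), per muscle for ages and jointly for muscles, with a prior count of 0.5 and Benjamini-Hochberg adjustment. Trends needed a criterion at least 6 below no trend, and logistic ones 2 below linear. Lines sharing a symbol were summed. Groups came from the titles. Alternatives were other scalings, filters, tools (edgeR's quasi-likelihood test, DESeq2 1.42.0), thresholds, covariates and left-out libraries. The scripts were tested on simulated data.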

Additional observations from a re-analysis of the deposited data

Results flagged for a closer look

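Of 27 groups of a gene and an age that held 10 libraries or fewer (gastrocnemius at 6, 21 and 24 months), 1 had a library far from the others, where chance gives about 1 in 20: the lowest Vegfb library at 21 months stood at 5.17 log2 CPM and the next at 5.70.

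The 6-to-27-month change differed between muscles and passed the interaction test above 1.5-fold for 6 combinations. They were Kdr in the gastrocnemius minus the diaphragm (-0.70), Angpt1 in the gastrocnemius minus the diaphragm (0.97), in the soleus minus the gastrocnemius (-0.66), in the tibialis anterior minus the gastrocnemius (-1.29) and in the tibialis anterior minus the soleus (-0.63), and Angpt2 in the tibialis anterior minus the diaphragm (-0.63). The last of these, and those of Angpt1 between gastrocnemius and soleus and between soleus and tibialis anterior, were not called with Bonferroni adjustment, and the Angpt2 and the gastrocnemius and soleus differences were not called with edgeR.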

How the results depend on the processing

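At 27 months 28 of the 36 changes of a gene in a muscle passed. Of these, 28 also passed without each library in turn, 26 with Bonferroni adjustment, 22 in all planned settings other than Bonferroni, and, in settings chosen after seeing the data, 20 with the library axis and 24 with the macrophage level as a covariate. The shares of all genes that passed in these other settings are not given here. Except where a setting shows it, the cause was not tested. Without each library in turn the number of genes called was 1 to 2 in the diaphragm, 3 to 4 in the gastrocnemius, 3 to 4 in the soleus and 5 to 5 in the tibialis anterior, and the number passing 7 to 7, 7 to 7, 7 to 8 and 7 to 7. Cdh5 in the soleus ranged from -0.039 to 0.032, and its sign turned without 27-month replicate 1 or 9 or 6-month replicate 3 (0.032, 0.0048 and 0.0018).

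A 2-fold threshold left 0, 1, 0 and 2 genes called at 27 months and as many age-related (diaphragm, gastrocnemius, soleus, tibialis anterior), 1 for gastrocnemius and soleus at 6 months and 0 for the other pairs. Under Bonferroni the interaction counts of diaphragm and tibialis anterior, gastrocnemius and soleus, and soleus and tibialis anterior were 0. The share of all genes called under Bonferroni is not given here either. At 24 months the ratio of Angpt2 to Angpt1 was -0.22 in the diaphragm and -0.36 in the tibialis anterior, Flt1 to Kdr -0.019, 0.031 and -0.058 in the diaphragm, gastrocnemius and tibialis anterior, and Vegfa to Vegfb -0.049, -0.22 and 0.011 in the diaphragm, gastrocnemius and soleus.

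Total-count scaling gave, at 27 months, Vegfb 0.016, 0.16 and 0.20 (diaphragm, gastrocnemius, tibialis anterior), Pecam1 0.043 and 0.25 (soleus, tibialis anterior), Cdh5 0.14 (soleus), and 2 genes called and 2 age-related in the tibialis anterior, with 1 called in the gastrocnemius and 0 in the tibialis anterior at 24 months. This scaling raised the calls over all genes in the tibialis anterior at 27 months from 3245 to 4065. At 6 months it gave 5 genes for diaphragm and tibialis anterior (Vegfa -0.27, Angpt1 -0.29), 5 for gastrocnemius and soleus (Vegfa 0.30, Kdr 0.28), 1 for soleus and tibialis anterior (Flt1 -0.015, Angpt1 -0.25, Angpt2 -0.36, Cdh5 -0.071) and Vegfb at -0.27 for diaphragm and gastrocnemius. Interactions became 1 for diaphragm and gastrocnemius (Vegfa 0.10, Vegfb 0.15, Tek 0.25, Cdh5 0.23), 0 for diaphragm and tibialis anterior (Vegfb 0.19, Angpt1 0.030, Pecam1 0.30) and 0 for soleus and tibialis anterior (Kdr 0.15, Flt1 0.11, Tek 0.082), with Pecam1 at 0.095 for diaphragm and soleus, Angpt2 at -0.041 for gastrocnemius and soleus and Vegfb at 0.039 for gastrocnemius and tibialis anterior. Correlations with Pecam1 became -0.14 for Vegfb in the gastrocnemius, 0.015 for Angpt1 and 0.067 for Angpt2 in the soleus, and -0.055 for Vegfa and -0.026 for Angpt2 in the tibialis anterior.

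Upper-quartile scaling gave Vegfb 0.033 in the diaphragm, 0 genes called in the tibialis anterior at 24 months, 1 for soleus and tibialis anterior at 6 months (Angpt2 -0.021) and, as interactions, 0 for diaphragm and tibialis anterior (Pecam1 0.019), Vegfb 0.035 for gastrocnemius and tibialis anterior and Kdr 0.023 for soleus and tibialis anterior. RLE size factors gave 1 for soleus and tibialis anterior at 6 months, and interactions of 0.0028 for Pecam1 (diaphragm, tibialis anterior) and 0.022 for Vegfb (gastrocnemius, tibialis anterior). With edgeR, Cdh5 in the soleus was 0.0012, 0 genes were called in the tibialis anterior at 24 months, and interactions were 0 for diaphragm and tibialis anterior and for gastrocnemius and soleus, with Vegfb 0.012 (gastrocnemius, tibialis anterior) and Kdr 0.0056 (soleus, tibialis anterior). A filter at mean log2 CPM 1 gave Cdh5 0.014 in the soleus. Sample quality weights gave 0 genes in the tibialis anterior at 24 months and 0 interactions for gastrocnemius and soleus (Vegfa 0.059). The axis as a covariate gave 0 genes called in the diaphragm and 0 passed and 0 called in the gastrocnemius (Vegfa 0.17, Vegfb 0.40, Flt1 0.081), and the macrophage level Vegfb 0.011, 0.020 and 0.16 (diaphragm, gastrocnemius, tibialis anterior) and 2 genes called in the tibialis anterior.

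Same-numbered libraries at 6 and 27 months, which are of different rats, had a median correlation of 0.01 to 0.07 after removal of age means. Between 2 muscles at 1 age it was 0.20 for diaphragm and tibialis anterior, 0.18 for soleus and tibialis anterior, 0.13 for diaphragm and soleus and 0.034 to 0.085 with the gastrocnemius, and in each of these pairings some correlations were below 0, so the numbers were not taken to pair samples. The replicate block gave 0 genes called in the tibialis anterior at 24 months in place of 1, and Angpt1 at 0.0050 for diaphragm and soleus at 6 months.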
